A study of Mus musculus with 5 samples.

Results

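The 10 genes described here encode receptors that sense lipopolysaccharide and other microbial molecules, and the proteins that serve them: Cd14, Ly96, Tlr1, Tlr2, Tlr4, Tlr7, Tlr13, Myd88, Irak3 and Unc93b1. They were taken by symbol, and all 10 were found among the 14161 genes with a value in any of 5 RNA-seq libraries of cultured mouse bone marrow mesenchymal stem cells, the adherent stromal cells of marrow. They were 3 libraries of Bmal1-knockout cells and 2 libraries of wild type cells. All cells came from femur marrow of C57BL/6 mice aged 6 to 8 weeks, were grown in α-MEM with 12% FBS and are labelled as passages 1 to 3. Bmal1 (symbol Arntl) encodes the transcription factor that drives the circadian clock with its partner CLOCK, and the series asks which genes it regulates in these cells. No label says how Bmal1 was knocked out or whether the libraries come from separate animals or cultures, so the p-values measure only the spread between these libraries.

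Toll-like receptors span the cell surface or the membrane of endosomes and bind molecules that microbes carry. Lipopolysaccharide of bacterial outer membranes is handed by CD14 to TLR4 and its partner MD-2, the product of Ly96. TLR2 pairs with TLR1 or TLR6 and binds bacterial lipoproteins, while TLR7 and, in mice, TLR13 bind RNA in endosomes, where UNC93B1 delivers them. Most of these receptors signal through the adaptor MYD88 to IRAK kinases and NF-κB, and IRAK3 (IRAK-M) restrains that signal. Macrophages express the family strongly, and marrow stromal cells also carry some members.

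The libraries were shallow. Expected counts, the estimated reads per gene, came to 226695, 237088 and 281990 in the knockout libraries and to 243072 and 211623 in the wild type libraries. Levels are given as CPM (counts relative to the library's scaled total over the tested genes), and 1 count was worth 4.05 to 5.31 CPM. A count of 0 allows a level of up to 12.1 to 15.9 CPM, for counting error only. Arntl itself had 4, 1 and 2 counts in knockout and 5 and 0 in wild type libraries, so it does not check the labels at this depth. Stromal markers fixed for the label (collagens, Sparc, Cxcl12 and others, 14 genes) summed to 14004 ± 618 CPM in knockout (SD, n = 3) and 5285 ± 26.7 CPM in wild type libraries (n = 2). Among them the surface marker Thy1 (2, 0 and 0 counts in knockout, 3 and 0 in wild type) and the proteoglycan gene Lum (1, 1 and 0 in knockout, 4 and 1 in wild type) were at or near 0, and Lepr and Nt5e had at most 6 counts in any library. Macrophage markers were abundant in every library: all 18 were listed, with summed levels of 10340 to 11511 CPM in knockout and 16601 to 17002 CPM in wild type libraries. Markers of neutrophils, B cells, T and NK cells and mast cells summed to at most 33.6 CPM in any library. S100a9, Elane, Mpo, Ly6g, Cd3e, Cd3d and Cd3g were not listed at all. Dendritic cell markers summed to 1042 to 1280 CPM in knockout and 1688 to 2041 CPM in wild type libraries. Most of this was Zbtb46 (means of 1104 and 1792 CPM), while Flt3, Itgax and Siglech were not listed. Endothelial markers summed to 128 to 178 CPM in knockout and 165 to 197 CPM in wild type libraries.

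Of the 10 genes, Cd14, Ly96, Tlr4, Tlr7 and Unc93b1 had no promoter sequence held, so these 5 were not searched for motifs. For the other 5 genes, 7 promoters of 300 bases were held (250 before and 50 after a start, RefSeq, GRCm38.p6, the mm10 assembly). The E-box CACGTG, the palindrome that BMAL1 and CLOCK bind, was searched for in them together with a PU.1-type site (GAGGAAGT), an interferon-response element (ISRE) and an AP-1 site (TGANTCA), on both strands. Shown first is the downstream one of the pair of Irak3 promoters (chr10:120201548-120201847, minus strand), since Irak3 had the largest fitted change of the 7 members tested and this promoter holds an E-box, which the upstream one does not. The Tlr1 promoters follow for comparison, the upstream one (chr5:64933509-64933808, minus strand) with the PU.1-type site and the downstream one (chr5:64932650-64932949, minus strand) with an E-box. Capitals mark the motif.
Irak3: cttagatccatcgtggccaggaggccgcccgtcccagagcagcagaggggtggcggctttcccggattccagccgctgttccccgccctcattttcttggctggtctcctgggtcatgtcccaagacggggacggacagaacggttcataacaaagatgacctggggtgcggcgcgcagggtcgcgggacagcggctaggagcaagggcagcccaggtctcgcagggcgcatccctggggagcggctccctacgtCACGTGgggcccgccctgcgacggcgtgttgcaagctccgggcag
Tlr1 upstream: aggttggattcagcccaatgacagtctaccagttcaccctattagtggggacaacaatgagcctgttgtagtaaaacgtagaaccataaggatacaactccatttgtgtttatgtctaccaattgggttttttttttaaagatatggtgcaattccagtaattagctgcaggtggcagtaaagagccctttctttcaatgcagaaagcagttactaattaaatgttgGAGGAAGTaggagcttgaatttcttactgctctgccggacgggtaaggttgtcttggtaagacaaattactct
Tlr1 downstream: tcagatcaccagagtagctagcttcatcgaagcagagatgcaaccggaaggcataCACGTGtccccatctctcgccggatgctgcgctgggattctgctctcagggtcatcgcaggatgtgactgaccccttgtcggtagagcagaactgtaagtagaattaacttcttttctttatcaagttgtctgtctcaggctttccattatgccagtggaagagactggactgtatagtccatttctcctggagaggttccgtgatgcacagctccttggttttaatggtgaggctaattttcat
The E-box was thus in 2 of the 7 promoters and in 7.15% of all 32851 promoters of the same length. In Irak3 it begins 6 bases after the start of that promoter, and in Tlr1 195 bases before it. The PU.1-type letters were in 1 of the 7 promoters (3.20% of all), those of the interferon element in 1, that of Myd88 (3.44% of all), and those of AP-1 in 0 (7.81% of all). The motifs do not overlap one another in the 3 printed promoters. A match of letters is a description and does not show binding.

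Cd14 was called lower in the knockout cells. Irak3 was also called lower, but not without the filter on low counts. Of the 10 genes 7 had enough counts to test and 3 were too low: 2 fell, 5 did not pass and 0 rose. At an unadjusted p under 0.05, 0 were higher (13.3% of all tested genes). DESeq2 also called 0 higher (6.78% of the 2199 genes to which it gave an adjusted p). It gave none to Tlr1, Tlr4 and Irak3. Across all 3710 tested genes 8.14% were called lower and 8.19% higher at an adjusted p under 0.05 (edgeR's quasi-likelihood test, Benjamini-Hochberg adjustment), 302 and 304 genes. All 7 fitted log2 fold changes were below 0, as were 49.5% of those of all tested genes, and the median was -0.51, against 0.01 over all tested genes. In 5 of the 7 every knockout library lay below both wild type libraries, which held for 21.5% of all tested genes. Irak3 passed the filter on low counts only through the wild type libraries, where it is high. Its call, these counts and the median over the tested genes therefore lend no support of their own. A gene's lower level in bulk RNA can mean fewer cells of the type that expresses it or less RNA in each, and these cannot be told apart here.

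**Figure D1:**
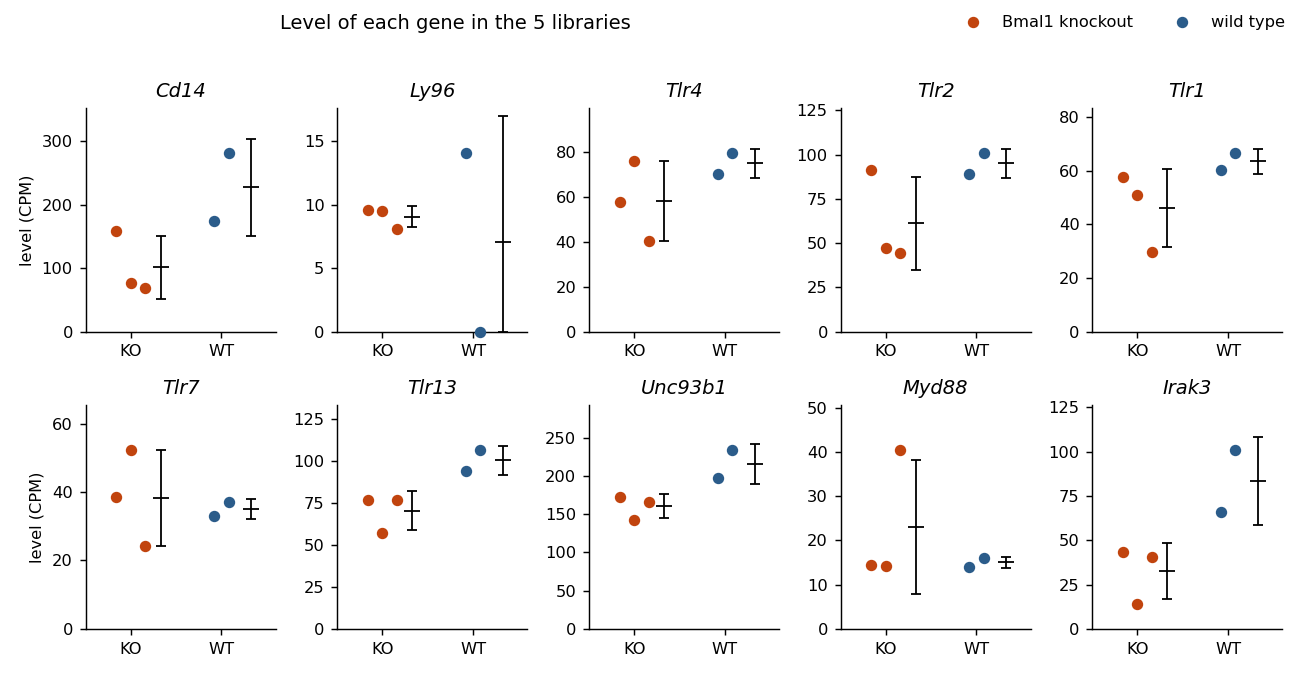
Level of each of the 10 genes in CPM (linear axes from 0, scaled per gene) in the 3 knockout libraries (left, orange) and the 2 wild type libraries (right, blue); points are libraries, bars the mean and SD, cut at 0. The knockout libraries of Cd14, Tlr1, Tlr13, Unc93b1 and Irak3 all lie below both wild type libraries, while the groups overlap for the other 5 genes.

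Cd14, on chromosome 18, encodes the surface protein that binds lipopolysaccharide and passes it to the TLR4 complex. Its level was 159, 76.1 and 68.8 CPM (33, 16 and 17 counts) in the knockout libraries, against 174 and 282 CPM (37 and 53 counts) in the wild type libraries. The groups did not overlap, but knockout 1 lay close to wild type 1, and both groups spread widely. The mean was 101 ± 49.9 CPM in knockout (SD, n = 3) and 228 ± 76.3 CPM in wild type cells (n = 2). Cd14 fell by 1.18 on the log2 scale (SE 0.28, 95% interval -1.72 to -0.63, edgeR adjusted p = 0.000449), to 0.443 of the wild type level. The call was lost without wild type 2, the library with the highest value (-0.81, adjusted p = 0.210). It was also lost in limma fits of the deposited FPKM values (adjusted p = 0.0710 with a pseudocount of 1).

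Tlr4, on chromosome 4, encodes the receptor that CD14 feeds. It had 57.7, 76.1 and 40.5 CPM in knockout and 70.5 and 79.7 CPM in wild type libraries. The groups overlapped, and knockout 2 lay within the wild type range. Its log2 fold change was -0.38 (SE 0.40, 95% interval -1.17 to 0.41, adjusted p = 0.585), and it did not pass. Ly96, on chromosome 1, encodes MD-2, the TLR4 partner that holds the lipid part of lipopolysaccharide. It had 2 counts in each knockout library and 3 and 0 in the wild type libraries. These counts allow no direction: the exact Poisson ratio of knockout to wild type was 1.20, with a 95% interval of 0.257 to 7.45 (counting error only; adjusted p = 1.0 over the 3 genes too low for the filter).

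Tlr2, on chromosome 3, encodes the receptor for bacterial lipoproteins. It had 91.3, 47.5 and 44.5 CPM in knockout, against 89.3 and 101 CPM in wild type libraries. Knockout 1 lay within the wild type range, and the other two knockout libraries were about equal and lower. The log2 fold change was -0.65 (SE 0.38, 95% interval -1.39 to 0.09, adjusted p = 0.260) and did not pass. For Tlr2 the deposited gene length differed between libraries, with 2874, 3142 and 3897 bases in knockout and 3529 and 3346 bases in wild type. The transcripts that the authors deposited for Tlr2 are 1 from RefSeq and 1 outside it. Whether the second one sets the differing lengths was not tested. Its FPKM values (per kilobase and depth, as the authors computed them) of 23.9, 10.8 and 7.94 in knockout and 18.4 and 22.4 in wild type rest on those lengths.

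Tlr1, on chromosome 5, encodes the partner with which TLR2 binds triacylated lipoproteins. It had 57.7, 51.0 and 29.7 CPM in knockout, against 60.3 and 66.7 CPM in wild type libraries. All knockout libraries lay below wild type, knockout 1 by less than the value of 1 count. The log2 fold change was -0.51 (SE 0.43, 95% interval -1.37 to 0.34, adjusted p = 0.477) and did not pass. Tlr1 was the 1 gene of the 10 whose counts were not whole numbers within 0.005 in every library. Its fractions are complemented by those of Tlr6, the neighbouring paralog that pairs with TLR2 for diacylated lipoproteins. Tlr1 was given 12, 10.73 and 7.33 counts in knockout and 12.83 and 12.55 in wild type. Tlr6 was given 0, 3.27 and 6.67 in knockout and 2.17 and 4.45 in wild type. Together they made 12, 14 and 14 reads in knockout and 15 and 17 in wild type, whole in all 5 libraries. Knockout 3, the lowest library for Tlr1, was thus the highest for Tlr6. With the reads of the pair summed, an alternative added after seeing the data, the log2 fold change was -0.41 (adjusted p = 0.546).

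**Figure D2:**
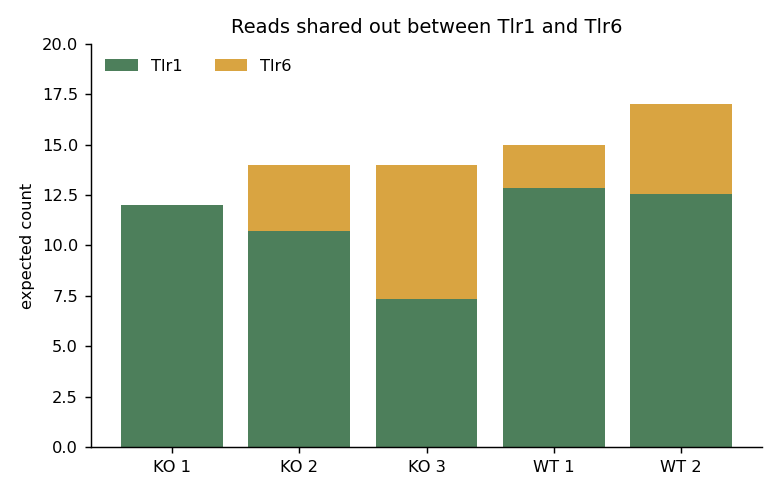
Expected counts given to Tlr1 (green) and Tlr6 (yellow) in each knockout (KO) and wild type (WT) library, stacked. The total is 12 to 14 in knockout and 15 to 17 in wild type, while the Tlr6 portion varies from 0 to 6.67 between the knockout libraries.

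Unc93b1, on chromosome 19, encodes the membrane protein that carries TLR7, TLR13 and other nucleic acid receptors from the endoplasmic reticulum to endosomes. With 193 counts over all libraries it was the most deeply counted of the 10. Its level was 173, 143 and 166 CPM in knockout, against 197 and 234 CPM in wild type libraries. The groups did not overlap and both were narrow. The log2 fold change was -0.42 (SE 0.26, 95% interval -0.92 to 0.09, adjusted p = 0.291) and did not pass. Tlr13, on chromosome X, encodes a receptor for bacterial ribosomal RNA. It had 76.9, 57.0 and 76.9 CPM in knockout, against 94.0 and 106 CPM in wild type libraries. Again the groups did not overlap, but the log2 fold change of -0.50 (SE 0.37, 95% interval -1.22 to 0.22, adjusted p = 0.388) did not pass.

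Tlr7, the endosomal receptor for single-stranded RNA, was too low for the test. It had 8, 11 and 6 counts in knockout and 7 and 7 in wild type libraries, and the groups overlapped. The exact Poisson ratio of knockout to wild type was 1.08, with a 95% interval of 0.538 to 2.24 (adjusted p = 1.0). Its closest neighbour in the genome, Tlr8 (chromosome X, 167241123 to 167264329, with Tlr7 at 167303380 to 167330574, mm10), encodes another endosomal RNA receptor and gave a different picture. Tlr8 had 76.9, 90.3 and 68.8 CPM in knockout, against 207 and 133 CPM in wild type libraries. It fell by 1.12 on the log2 scale (SE 0.31, adjusted p = 0.00422). It did not pass when wild type 1 was left out (-0.78, adjusted p = 0.327) or with DESeq2 (-1.12, adjusted p = 0.0672). Whether Tlr8 and Tlr7 differ in their response was not tested.

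Myd88, on chromosome 9, encodes the adaptor that couples most Toll-like receptors and the interleukin-1 receptors to IRAK kinases. It had 3, 3 and 10 counts in knockout and 3 and 3 in wild type libraries. The 10 counts of knockout 3 set it apart from 4 libraries at 3 counts each. The exact Poisson ratio was 1.61 (95% interval 0.597 to 5.01, adjusted p = 1.0), and it was 0.958 without knockout 3. Of the 2576 bases of the Myd88 exons, 290 lie opposite exons of Acaa1a. No source states that reads were counted by strand, so reads from those 290 bases may not be told apart from those of Acaa1a. The Myd88 counts were whole in all 5 libraries, and whether they hold such reads was not tested.

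Irak3 (chromosome 10, 120141648 to 120202130, minus strand, mm10) encodes IRAK-M, the kinase-like protein that dampens Toll-like receptor signalling and is known from macrophages made tolerant to lipopolysaccharide. Its level was 43.2, 14.3 and 40.5 CPM (9, 3 and 10 counts) in knockout, against 65.8 and 101 CPM (14 and 19 counts) in wild type libraries. The groups did not overlap, with knockout 2 the lowest and wild type 2 the highest. The mean was 32.7 ± 15.99 CPM in knockout (SD, n = 3) and 83.4 ± 24.9 CPM in wild type cells (n = 2). Irak3 fell by 1.31 on the log2 scale (SE 0.44, 95% interval -2.16 to -0.45, adjusted p = 0.0219), to 0.404 of the wild type level. The call rests on few reads: it was lost without knockout 2 (-0.97, adjusted p = 0.152), without wild type 2 (-0.99, adjusted p = 0.425), with limma voom (-1.34, adjusted p = 0.0722) and with no filter on low counts (-1.29, adjusted p = 0.102). In the limma fit of FPKM values with a pseudocount of 1 the call was lost too (adjusted p = 0.108). DESeq2 gave Irak3 no adjusted p (unadjusted p = 0.0386). Exons of Irak3 share 220 bases with exons of Tmbim4 and Gm47009 on the other strand. Its downstream promoter, printed above, is the one with the E-box.

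**Figure D3:**
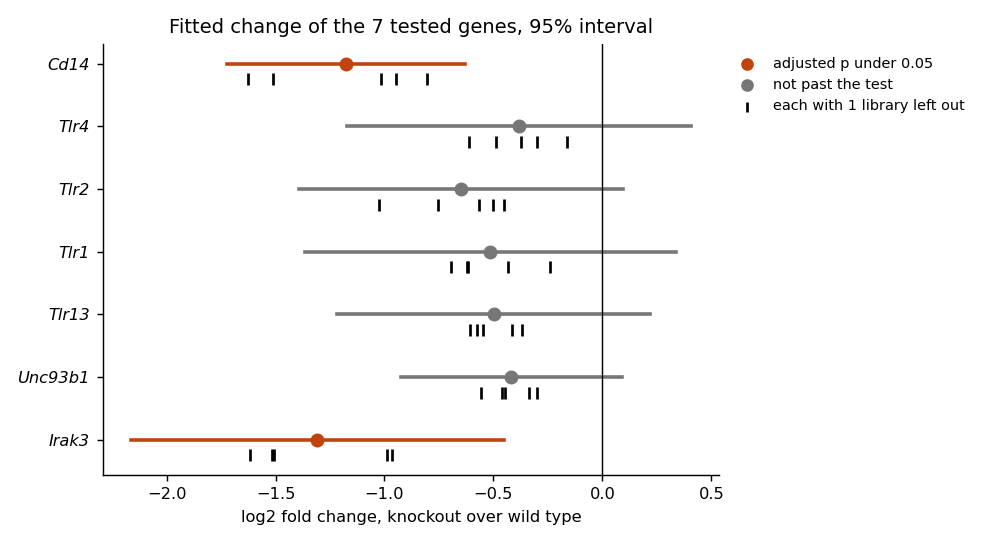
Log2 fold change of knockout over wild type for the 7 tested genes, with 95% intervals (lines); orange passed the test and grey did not, and black ticks show the fold change with 1 library left out. Every interval but those of Cd14 and Irak3 includes 0, and every tick lies below 0.

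Per kilobase, Cd14 and Unc93b1 stood above the other 8 genes. Cd14 had 45.6 ± 24.2 FPKM in knockout (SD, n = 3) and 104 ± 36.1 FPKM in wild type cells (n = 2). Unc93b1 had 52.8 ± 4.68 FPKM in knockout and 71.1 ± 9.38 FPKM in wild type cells, so its mean exceeded that of Cd14 in knockout cells only, and the ranges of the pair over the 5 libraries overlapped. In the mean over all 5 libraries Tlr2 came next, with 14.2 ± 8.50 FPKM in knockout and 20.4 ± 2.81 FPKM in wild type cells, and its highest library (23.9 FPKM) lay below the lowest of Unc93b1 (48.6 FPKM). After Tlr2, that mean was lower in turn for Tlr13, Irak3, Tlr1, Ly96, Myd88, Tlr7 and Tlr4, and each overlapped the next over the libraries. The order was not the same within each group. Irak3 averaged 7.98 ± 3.998 FPKM in knockout cells, below Tlr2, Ly96, Tlr13, Tlr1 and Myd88, and 20.8 ± 6.45 FPKM in wild type cells, above all of these. Tlr4 had the lowest mean in knockout cells, at 5.17 ± 1.601 FPKM, while its 6.84 ± 0.68 FPKM in wild type cells lay above Myd88, at 5.85 ± 0.58 FPKM, and Tlr7, at 6.765 ± 0.67 FPKM.

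Summed over the 10 genes, the level was 721, 541 and 539 CPM in knockout, against 812 and 1023 CPM in wild type libraries. Means were 600.3 ± 104 CPM in knockout (SD, n = 3) and 918 ± 149 CPM in wild type cells (n = 2), a ratio of 0.654. The macrophage markers moved in the same direction and by a similar ratio, 0.647: of the 18, 17 were tested, 8 fell and 9 did not pass, with a median log2 fold change of -0.55. Lyz2, the macrophage lysozyme, fell by 0.67 on the log2 scale and Ctss, a lysosomal protease, by 0.86. Relative to the macrophage markers, the 10 genes had 62.6, 52.3 and 50.2 counts per 1000 marker counts in knockout and 47.8 and 61.6 in wild type libraries, so that the groups overlapped.

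Single genes were also set against the markers, with no test of a difference from their ratio. With Lyz2, the most abundant marker, left out of the sum, Cd14 had 35.9, 19.97 and 17.2 counts per 1000 marker counts in knockout, against 28.7 and 46.8 in wild type libraries, and the groups overlapped. Irak3 had 9.78, 3.74 and 10.1 in knockout, against 10.9 and 16.8 in wild type libraries, which did not overlap but came close. The other 8 genes together had 117, 118 and 107 per 1000 in knockout, against 94.6 and 106 in wild type libraries, with knockout on the higher side. These 8 are what is left without the 2 called lower in the same libraries, so that direction lends no support of its own. All 10 together had 163, 142 and 135 in knockout, against 134 and 170 in wild type libraries, and the groups overlapped. In an edgeR fit scaled to the summed markers, added after seeing the data, the median of all tested genes moved to 0.63, with 61 genes lower and 1433 higher. There Cd14 was at -0.55 (SE 0.28, adjusted p = 0.101) and Irak3 at -0.69 (SE 0.46, adjusted p = 0.222), and neither passed. The other 5 tested genes lay between -0.03 and 0.24. All 7 lay below that median, as in the main fit. This scaling moves every gene by nearly the same amount, so that position is no further evidence. What part the share of macrophages has in the change of Cd14 or Irak3 was not tested.

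**Figure D4:**
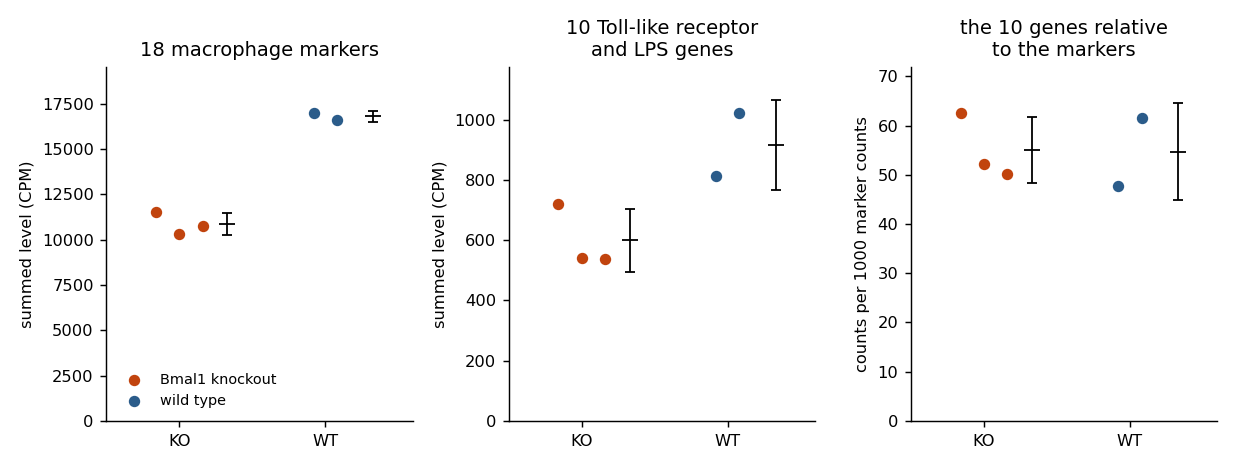
Summed level in CPM of 18 macrophage markers (left) and of the 10 genes (middle), and counts of the 10 genes per 1000 marker counts (right), in knockout (KO, orange) and wild type (WT, blue) libraries; points are libraries, bars the mean and SD. Both sums are lower in every knockout library, and the quotient overlaps between the groups (50.2 to 62.6 in knockout, 47.8 to 61.6 in wild type).

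The genes of like pattern were named by the smallest root-mean-square difference between centred log2 levels over the 5 libraries, among 1488 tested genes of at least 100 CPM, as a description. For Cd14 these were Syk (0.25), Rassf4 (0.25) and Gm4070 (0.27). Syk, for one, had 106, 66.6 and 64.7 CPM in knockout, against 132 and 165 CPM in wild type libraries, with knockout 1 and wild type 2 the highest of their groups, as for Cd14. For the sum of the 10 genes they were Fcrls (0.04), Fcgr3 (0.06) and Rcbtb1 (0.06). Fcrls had 130, 105 and 101 CPM in knockout, against 160 and 197 CPM in wild type libraries.

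Genes around the 10 in the pathway were counted from lists that cover other receptors, accessory proteins, adaptors and kinases, inhibitors, response genes and cytosolic sensors: 94 genes, 90 of them listed and 37 tested. Of the 37, 7 fell and 0 rose with edgeR, against 8.14% and 8.19% of all tested genes. At an unadjusted p under 0.05, 14 were lower and 0 higher, against 14.3% and 13.3% of all tested genes. DESeq2 gave 16 of the 37 an adjusted p and called 2 lower and 0 higher, against 5.96% and 6.78% of the genes with one. Of the 37, 5 passed the low-count filter only through wild type libraries (Irak2, Tnip1, Dusp1, Irg1 and Naip2) and 5 only through knockout libraries (Tlr3, Irak1, Ikbkg, Cyld and Nlrc4), so the counts and medians of the lists, like those of the members, lend no support of their own. Among the 53 listed genes too low to test, all knockout libraries lay below both wild type libraries for 14 and above them for 2. Of all 10451 untested genes, 9.6% and 9.33% did so. These shares were not matched for the number of counts. Among the other Toll-like receptors 5 of 7 were listed and 2 tested, Tlr8 (above) and Tlr3, the receptor for double-stranded RNA, which signals without MYD88. Tlr3 stood apart in direction, with 24.0, 52.3 and 48.6 CPM in knockout and 14.1 and 26.6 CPM in wild type libraries, but the groups overlapped and it did not pass (1.05, SE 0.75, adjusted p = 0.371). Tlr9, the receptor for bacterial DNA, had 3, 1 and 3 counts in knockout and 3 and 2 in wild type, Tlr5, the flagellin receptor, had 0 counts in knockout and 2 and 0 in wild type, and Tlr11 and Tlr12 were not listed.

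Of the receptor accessory proteins 11 of 12 were listed and 5 tested, and 1 fell. This was Cd36, a scavenger receptor that also helps TLR2 complexes, with 125, 133 and 154 CPM in knockout and 179 and 330 CPM in wild type libraries. Its fall of 0.86 on the log2 scale (adjusted p = 0.00807) was lost without knockout 2 (-0.83), without wild type 2 (-0.38, adjusted p = 0.618) and with DESeq2 (adjusted p = 0.0899). Hsp90b1, the chaperone that folds most Toll-like receptors, was at 0.08 (95% interval -0.18 to 0.35, adjusted p = 0.752). The median of the list was -0.62. Adaptors and kinases had all 24 listed and 13 tested, with 1 lower and a median of -0.16. That gene was Irf7, the transcription factor through which endosomal receptors induce type I interferon, with 130, 57.0 and 125 CPM in knockout and 244 and 213 CPM in wild type libraries. Irf7 fell by 1.12 on the log2 scale (SE 0.27, adjusted p = 0.000705), and did not pass when wild type 1 was left out (-1.03, adjusted p = 0.0553). Irf5, another factor downstream of MYD88, was at 0.13, and the kinase gene Irak1 at 0.13; neither passed.

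None of the 7 tested of 15 listed inhibitors passed with edgeR or DESeq2 (2 at an unadjusted p under 0.05 with edgeR), with a median of -0.48. Dusp1, a phosphatase that shuts off MAP kinases, had the smallest p, at -1.21 (adjusted p = 0.0685), followed by Peli1, a ubiquitin ligase that acts on IRAK proteins, at -0.48 (adjusted p = 0.119). Response genes, which lipopolysaccharide induces in macrophages, had 22 of 23 listed and 8 tested: 4 fell, 0 rose and the median was -0.72. Irg1, now Acod1, which makes itaconate, had 14.4, 28.5 and 16.2 CPM in knockout, against 122 and 85.0 CPM in wild type libraries. It fell by 2.38 on the log2 scale (SE 0.46, edgeR adjusted p = 5.96e-06). Irg1, like Dusp1 and Naip2, passed the low-count filter only through the wild type libraries, so this call lends no support of its own. With no filter edgeR gave Irg1 -2.36 (adjusted p = 6.43e-05). Il1b, the cytokine interleukin-1β, fell by 1.91 (adjusted p = 0.0002975), with 3, 1 and 13 counts in knockout and 22 and 17 in wild type. Both calls were lost without wild type 1 (-2.10 for Irg1 and -1.84 for Il1b), and DESeq2 gave neither gene an adjusted p. Il1b was at -3.27 without knockout 3, its highest knockout library, and did not pass in the FPKM fits (adjusted p = 0.0524 with a pseudocount of 1). Saa3, an acute phase protein, fell by 0.59 and passed with each library left out. The fourth was Sod2, the mitochondrial superoxide dismutase, which fell by 0.97 (adjusted p = 0.00514) and did not pass without wild type 1 (-0.62), with DESeq2 (adjusted p = 0.0763) or in the fit blocked by replicate number (-0.84, adjusted p = 0.0588). Tnf, the classical response gene, had 8, 4 and 3 counts in knockout and 4 and 1 in wild type, too few for a test. Of the cytosolic sensors all 13 were listed and 2 tested, and neither passed with edgeR or DESeq2 (1 at an unadjusted p under 0.05 with edgeR): Naip2 was at -1.64 (adjusted p = 0.0944) and Nlrc4, its partner, at 0.99 (adjusted p = 0.286).

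**Figure D5:**
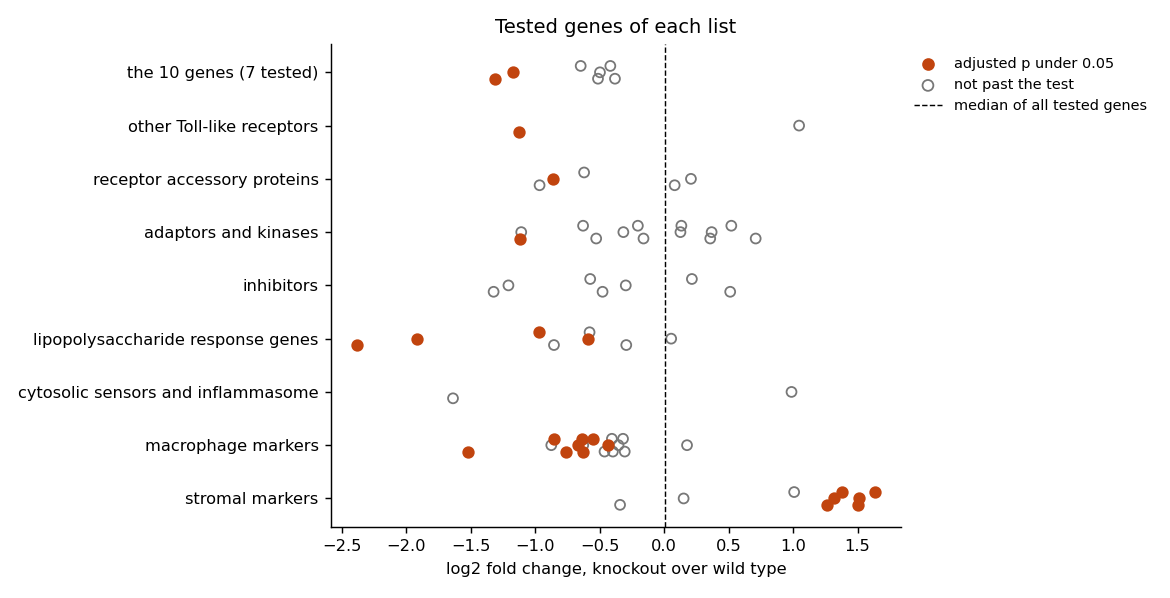
Log2 fold change of knockout over wild type for each tested gene of the pathway and marker lists; filled orange points passed the test, open grey points did not, and the dashed line is the median of all tested genes (0.01). All called pathway and macrophage genes lie below 0, and all called stromal genes lie above 0.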

How the data were processed

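Total RNA was sequenced in 5 libraries made by a standard Illumina protocol, per the labels. The tools HISAT2, StringTie, Bowtie2 and RSEM, and mm10 as the build, are given per the submitters' processing notes, which give no versions or roles. The authors deposited per library an expected count (estimated, not normalized), an FPKM value (fragments per kilobase, scaled to depth) and a length in bases for each gene, per the file headers; 93.8% to 94.2% of the counts were whole within 0.005. A gene absent from a library was taken as 0. Counts were rounded and tested with edgeR 4.0.16 in R 4.3.3: a filterByExpr filter on low counts (at least 10, total at least 15), TMM factors, a robust quasi-likelihood fit of genotype alone, and a Benjamini-Hochberg threshold of 0.05 over 3710 genes. Standard errors were derived from the quasi-likelihood F, and intervals are 95%. Members too low for the filter had their summed counts compared by an exact Poisson test, two-sided. CPM levels use TMM-scaled library totals; FPKM was used to compare genes.

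Alternatives were RLE and upper-quartile scaling, no filter and a mean of at least 20 counts, DESeq2 1.42.0, limma 3.58.1 (voom, and log2 FPKM with pseudocounts of 1 and 0.1), the replicate number as a block, and each library left out. The fit was tested on simulated data with the same dispersion for every gene. Only genes of higher mean count than Irak3, Irg1 and Il1b were changed there, so it does not cover changes at their depth. The 10 genes and the lists were chosen with earlier results of these data known. The rule names the 10 genes. It also names up to 3 called genes per direction of each list (or the 2 of smallest p where none was called). The 2 highest macrophage markers and the 3 genes of likest pattern per target are named as well. Tlr5, Tlr9, Hsp90b1, Irak1, Irf5 and Tnf were added after their values were seen. Tlr3 and Sod2 are described outside the rule too. Not every gene that the rule names in the marker lists is described: among dendritic cell markers, 1 of 2 tested fell (Zbtb46), and neither of 2 tested endothelial markers passed. Of 9 tested stromal markers 6 rose, among them Col3a1 by 1.38 and Sparc by 1.50 on the log2 scale. Replicate libraries of a group differed by more than sampling noise (chi-square per degree of freedom of 1.38 to 1.63). Exon overlaps are from GENCODE M21 on mm10, positions and promoters from RefSeq.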

Additional observations from a re-analysis of the deposited data

How the results depend on the processing

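With RLE or upper-quartile scaling the same 2 members (Cd14 and Irak3) and the same 7 pathway genes were lower. The count of members called lower was 1 with no low-count filter, with a mean of at least 20 counts (Irak3 then being untested), with DESeq2 and with limma voom. In each of these it was Cd14. In limma fits of log2(FPKM + 1) and log2(FPKM + 0.1) it was 0, with 2 at an unadjusted p under 0.05 in each. With each library left out it ranged from 0 to 2. Pathway genes called lower numbered 10 with no low-count filter, 8 with limma voom, 6 with a mean of at least 20 counts, 2 with DESeq2 (Irf7 and Saa3), 2 with either FPKM fit (Irg1 and Saa3) and 3 to 7 with each library left out. All tested genes called lower and higher were 131 and 149 with DESeq2, 171 and 171 with a pseudocount of 1, 157 and 157 with 0.1, and 146 to 287 lower and 144 to 323 higher with each library left out. With 1 wild type library left, that library is assumed to vary like the others. Of all genes, 204 were lower and 231 higher of 14139 with no low-count filter, and 288 and 234 of 3710 with limma voom. With a mean of at least 20 counts they were 264 and 244 of 1608. The pathway genes tested in these 3 settings were 90, 37 and 12, and the members 10, 7 and 2. Their counts are therefore not comparable between settings. Scaled to the summed macrophage markers, an alternative chosen after seeing the data, 0 members were lower (1 at an unadjusted p under 0.05), 2 pathway genes lower and 9 higher, and of all genes 61 lower and 1433 higher. This scaling moves every gene by the ratio of the markers, and Tlr1 (0.11), Tlr4 (0.24), Tlr13 (0.13), Unc93b1 (0.21) and Saa3 (0.036) then lay above 0. Among the low members the ratio ranged with each library left out from 0.881 (without knockout 2) to 1.30 for Tlr7, from 0.958 (without knockout 3) to 1.91 for Myd88 and from 0.640 (without wild type 2) to 1.28 for Ly96; without wild type 1 the wild type had 0 Ly96 counts and no ratio was given. The cause of these changes was not tested. The log2 ratio of the summed members ranged from -0.77 to -0.44 with each library left out, against -0.61.

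With the replicate number as a block, 2 members and 6 pathway genes were lower, Sod2 no longer passing (-0.84, adjusted p = 0.0588), and Il1b was at -3.27. Cd14 was at -0.94 (adjusted p = 0.0256) and Irak3 at -1.51 (adjusted p = 0.0400), and of all genes 212 were lower and 229 higher. Libraries of the same number shared no visible deviation (r = -0.01 for number 1 and 0.03 for number 2, across 3710 genes, which are not independent replicates), and the labels do not say that the numbers pair anything.

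Depth limits what can be seen: 3 of the 10 genes could not be tested, and the 95% intervals of the 5 genes that did not pass reach log2 fold changes of -0.92 to -1.39.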

Other observations

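Some pathway genes fell below the low-count filter but had groups that did not overlap, and those given here were picked after their values were seen. Tirap, the adaptor that brings MYD88 to TLR4 and TLR2, had 3, 0 and 2 counts in knockout libraries, against 6 and 5 in wild type libraries, with an exon overlap of 485 bases on the other strand. Ticam2, the adaptor that links TLR4 to the interferon branch, had 2, 1 and 5 counts in knockout, against 6 and 11 in wild type libraries, and it shares 838 exon bases with Tmed7 on the same strand. Nos2, the inducible nitric oxide synthase of activated macrophages, had 3, 1 and 0 counts in knockout, against 10 and 11 in wild type libraries. Without the filter, edgeR called Nos2 lower (-2.98, adjusted p = 0.00476), with Cxcl2 (-2.14) and Ptgs2 (-2.19), but neither Tirap (adjusted p = 0.426) nor Ticam2 (adjusted p = 0.197). Of all 14139 genes tested there, 204 were lower and 231 higher. The wild type libraries were uneven for Cxcl2 (21 and 7 counts, with 1, 3 and 6 in knockout). They were uneven for Ptgs2 too (5 and 18 counts, with 4, 3 and 1 in knockout). The knockout libraries lay above both wild type libraries for Cd180, a receptor relative of TLR4 on B cells and macrophages, with 6, 2 and 7 counts in knockout, against 2 and 1 in wild type libraries. The same held for Cnpy4, which encodes a protein that acts on TLR4 surface levels, with 8, 3 and 3 counts in knockout, against 1 and 2 in wild type libraries. Neither was called without the filter (Cd180 1.54, adjusted p = 0.597; Cnpy4 1.45, adjusted p = 0.666). Spi1, the macrophage factor PU.1, also named after its values were seen, was high enough to test. It had 48.0, 23.8 and 36.4 CPM (10, 5 and 9 counts) in knockout, against 108 and 101 CPM in wild type libraries. Its log2 fold change was -1.52 (SE 0.41, edgeR adjusted p = 0.00273), and no alternative fit is given for it. This was the largest fall of the 17 tested macrophage markers. Their median was -0.55, 9 did not pass, and Mrc1 lay above 0, at 0.18.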
